A study of Mus musculus with 6 samples.

Results

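Mouse chromosome 15 held 2218 of the 39495 entries in the 4 deposited lists of Bloodlinc ChIRP-seq regions. They were 1064 of the 18114 peaks found with even-numbered probes, 1083 of the 20596 peaks found with odd-numbered probes, 44 of the 517 peaks of a pulldown labelled without a pool, and 27 of the 268 consensus intervals. The members were chosen by their chromosome name in build mm9. The chromosome itself was selected on the number of its consensus intervals and pool peaks per Mb, which was higher than elsewhere, so the values below describe these lists and carry no test.

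Bloodlinc, also called alncRNA-EC7, is a long noncoding RNA made from a super-enhancer that is active in developing red blood cells, and it is known for acting on genes away from its own locus. ChIRP-seq fixes RNA to chromatin, pulls the RNA out with short biotinylated DNA probes and sequences the DNA that comes along. Splitting the probes into even and odd pools lets a site be asked for by separate sets of oligonucleotides, because DNA that sticks to a single probe should appear in a single pool.

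All 6 libraries came from MEL cells, an established mouse erythroleukaemia line that turns on red cell genes in dimethyl sulfoxide (DMSO). Each label gives 2% DMSO for 5 days. The pulldown, both pools, the input and the controls with RNase and with no probes were 1 library each, so the spread between cultures is not known. Peak names of the input hold the tag MELd0 where its label gives day 5, which leaves its day unsettled. The lists hold positions and a whole-number score whose scale is not given, and no expression values against which the cell type could be checked. Read depth is therefore unknown, and scores are compared only within a list. Ranges in brackets are 95% binomial intervals by the exact Clopper-Pearson method, and they hold counting error alone. They treat the peaks, bins or intervals counted as independent, which neighbours along a chromosome need not be. Whether the pulldown was captured separately or merges the reads of both pools is not stated in the labels, and if merged, its overlap with the pools would not compare separate libraries.

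Chromosome 15 had the highest density of the 19 autosomes in the even, odd and consensus lists and the second place, after chromosome 19, in the pulldown list. The called span of chromosome 15, from the first to the last peak of any list, was 100.2 Mb. The even list had 10.6 peaks per Mb there against 7.15 on the other 18 autosomes together, a ratio of 1.49 (1.40 to 1.58). The odd list had 10.8 against 8.16 peaks per Mb, a ratio of 1.32 (1.24 to 1.41). The pulldown list had 0.439 against 0.195 peaks per Mb, a ratio of 2.25 (1.61 to 3.07), where chromosome 19 had 2.33 (1.52 to 3.44). The consensus had 0.269 against 0.101 intervals per Mb, a ratio of 2.67 (1.73 to 3.99). The next autosome was chromosome 19 in the even list, with a ratio of 1.35 (1.24 to 1.46), and in the odd list, with 1.27 (1.17 to 1.38), so neighbours in this order overlapped in their counting intervals. In the consensus it was chromosome 9, with 1.93 (1.21 to 2.94). Median peak widths were close to those of the other autosomes, at 431 bp against 437 bp in the even list, 438 bp against 443 bp in the odd list and 577.5 bp against 565 bp in the pulldown list.

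**Figure D1:**
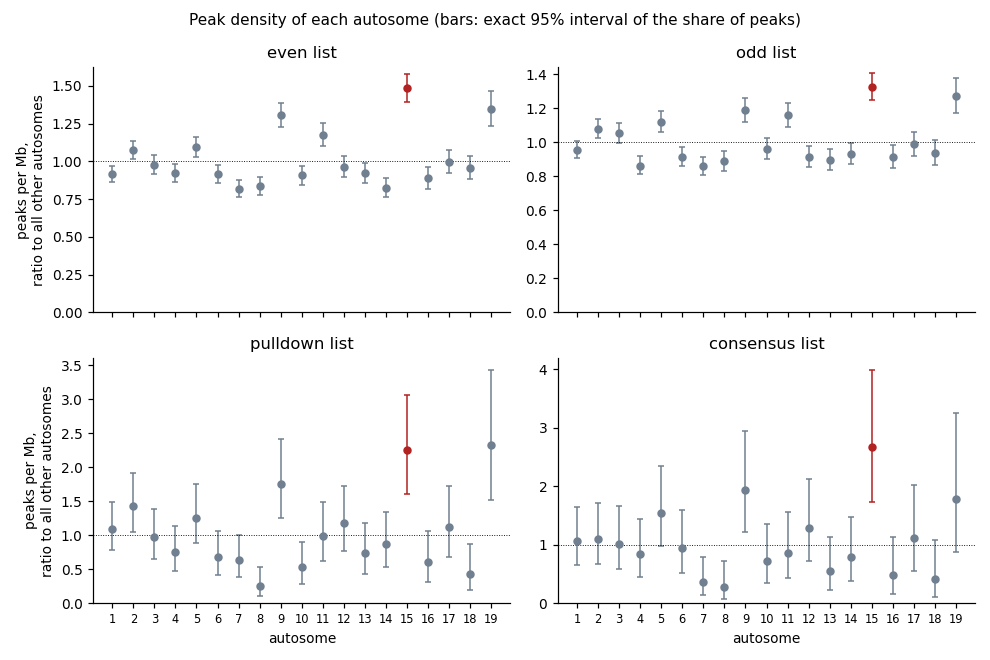
Peaks per Mb of each autosome divided by the density of all other autosomes, in 4 panels for the even, odd, pulldown and consensus lists, with bars for the exact 95% interval of the share of peaks. Chromosome 15 (red) is highest in the even (1.49), odd (1.32) and consensus (2.67) lists, and lies just under chromosome 19 in the pulldown list (2.25 against 2.33).

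The higher density in the even and odd lists ran along most of the chromosome. Peaks were counted in fixed bins of 5 Mb from position 1, and 19 bins lay wholly within the called span, against 447 on the other autosomes. Even counts on chromosome 15 ran from 27 to 92 per bin with a median of 47, against a median of 33 elsewhere. Odd counts ran from 28 to 76 with a median of 53, against 39. In each list 15 of the 19 bins (78.9%, 54.4% to 93.9%) exceeded the median bin of the other autosomes, where over all autosomes 50.9% of even bins and 49.4% of odd bins did so. This share was the highest of any autosome in both lists, with chromosome 11 next in the even list and chromosomes 9 and 11 next in the odd list, each at 73.9%. Of the 19 bins, 11 even and 10 odd bins lay above the upper quartile of the other autosomes, and 0 even and 1 odd bin lay below the lower quartile.

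The whole distribution of bins was shifted, not its upper end alone. For the even list, the lower quartile, median and upper quartile of the bins on chromosome 15 were 1.75, 1.42 and 1.47 times those of the other autosomes. For the odd list the same ratios were 1.53, 1.36 and 1.32. Relative to the mean bin elsewhere, chromosome 15 had 310 more even peaks and 248 more odd peaks over its 19 full bins. The 3 densest full bins, taken for each list by itself, held 132 and 106 of these. Without them the mean full bin was still 1.31 (even) and 1.22 (odd) times that of the other autosomes. The variance of the counts divided by their mean was 6.02 for even bins and 4.10 for odd bins on chromosome 15. The pooled bins of the other autosomes gave 7.68 and 6.24, which also hold differences in density between chromosomes. How counts vary within each other autosome was not compared.

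**Figure D2:**
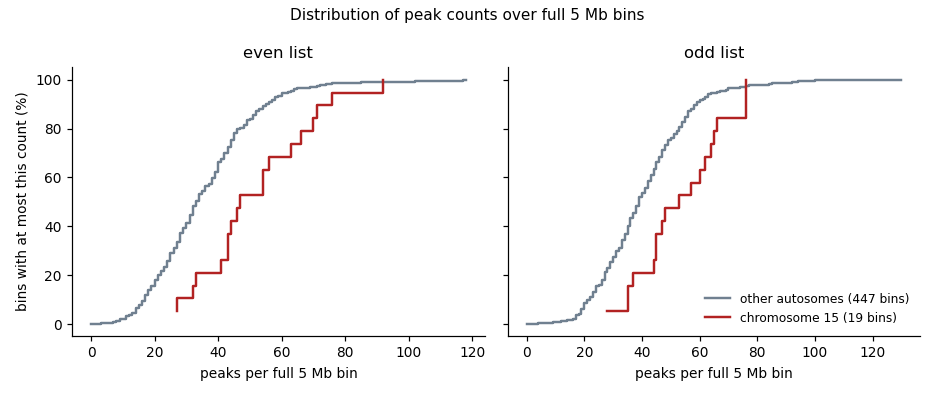
Cumulative percent of full 5 Mb bins (vertical) with at most a given number of peaks (horizontal), for the even and odd lists, on chromosome 15 (red, 19 bins) and the other autosomes (grey, 447 bins). The red curve lies to the right of the grey one over most of its range, with medians of 47 against 33 even peaks and 53 against 39 odd peaks.

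Dense and sparse stretches were nearly the same in both pools. The densest full bin, from 95 to 100 Mb, had 92 even and 76 odd peaks. The bin from 55 to 60 Mb had 76 of each, and the bin from 75 to 80 Mb had 70 even and 76 odd peaks. The sparsest full bins were those from 45 to 50 Mb (27 even, 28 odd), from 90 to 95 Mb (27 and 37) and from 15 to 20 Mb (32 and 35), which are below the median bin of the other autosomes in both lists. The incomplete last bin, from 100 Mb to the end of the called span at position 103391860, had 69 even and 56 odd peaks. Per Mb covered it was denser than any full bin, and the values over full bins leave it out. The incomplete first bin had 10 and 8. Across the 19 full bins the even and odd counts had a Pearson's r of 0.854 and a Spearman's rho of 0.799, as a description of bins that share their genome sequence and mappability. In 1 Mb bins, 2 bins had the highest count of the chromosome, 47 even and odd peaks together: the bin from 58 to 59 Mb (22 even, 25 odd) and the bin from 100 to 101 Mb (25 even, 22 odd). The densest 1 Mb bin of the other autosomes had 81, and 5 other autosomes had a denser bin than 47. None of the 99 full 1 Mb bins of chromosome 15 lacked an even or an odd peak.

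**Figure D3:**
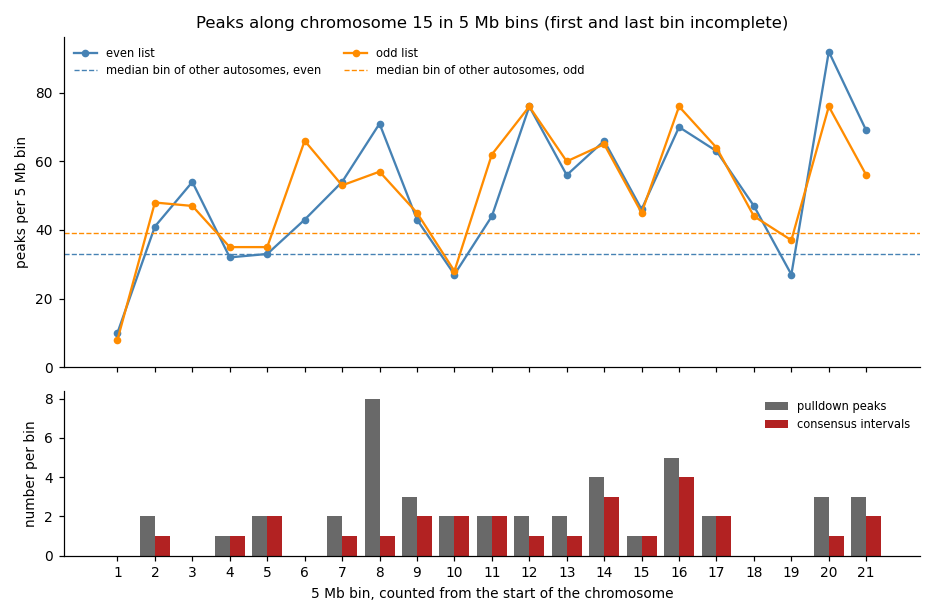
Top, even (blue) and odd (orange) peaks in each 5 Mb bin of chromosome 15, with dashed lines at the median bin of the other autosomes (33 and 39). Bottom, pulldown peaks (grey) and consensus intervals (red) per bin, with 8 pulldown peaks and 1 consensus interval in bin 8 and no consensus interval in bins 18 and 19.

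Consensus intervals also lay in most bins, and the exceptions were not confined to bins where the pools were sparse. Of the 19 full bins, 15 held at least 1 consensus interval and 15 at least 1 pulldown peak (78.9% each), where 32.6% and 48.5% of the full bins of all autosomes did so. A higher density fills more bins by itself, with a mean of 1.32 consensus intervals per full bin against 0.494 on the other autosomes. The chromosome was chosen on that density, so these shares are not separate from the choice. The 4 full bins without a consensus interval, from 10 to 15, 25 to 30, 85 to 90 and 90 to 95 Mb, held 54, 43, 47 and 27 even peaks. No bin held more than 4 consensus intervals, while single bins of the other autosomes held up to 6. The variance over the mean of the consensus counts was 0.849 on chromosome 15 and 1.72 over the pooled bins of the other autosomes, which also differ in density. Copy number was not measured in these lists, so a change in the number of chromosome copies and a property of the chromosome's sequence or chromatin cannot be told apart as sources of a density that is raised along its length. Chromosome X had 0.497 times the even density and 0.535 times the odd density of the autosomes. Its ratio was 0.664 in the pulldown list and 7.76 in the input list, the latter on 75 peaks. The source of these differences was not tested.

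The running numbers in the peak names allowed the density to be split into peaks numbered and peaks kept. In the pulldown, even and odd lists the numbers rise along the genome and have gaps. The gaps were read as peaks numbered and later left out. On this reading, the first and last number on a chromosome give the peaks numbered there before the list was reduced. No label or file states the rule of such a reduction or that it was made. On chromosome 15 at least 5984 even peaks had been numbered, 59.7 per Mb against 49.6 on the other autosomes, a ratio of 1.20. Chromosomes 19 (60.8 per Mb) and 11 (60.0 per Mb) had as many or more. Of the numbered even peaks of chromosome 15, 17.8% were kept, the highest share of any autosome, against 14.4% elsewhere and a range of 12.7% to 16.3%. For the odd list, at least 5749 had been numbered, 57.4 per Mb against 47.9, a ratio of 1.20, and 18.8% were kept against 17.0% elsewhere. Chromosome 3 kept a larger share of its odd peaks, 19.4%.

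Chromosome 15 stood high on both quantities, and so did chromosomes 19 and 9. Chromosome 19 had 60.8 numbered even peaks per Mb with 16.0% kept and 58.0 odd peaks per Mb with 18.0% kept. Chromosome 9 had 57.7 with 16.3% kept and 54.7 with 17.8% kept. Chromosome 11 had 60.0 numbered even peaks per Mb and kept 14.2% of them. On the same reading of the numbers, the density ratio of 1.49 in the even list was the product of 1.20 times as many numbered peaks and 1.23 times the share kept. For the odd list the same factors were 1.20 and 1.11. In the pulldown, at least 1434 peaks had been numbered on chromosome 15, 14.3 per Mb against 9.90, a ratio of 1.45, and 3.07% were kept against 1.97%, a ratio of 1.56. These pulldown values rest on the fewest peaks that can have been numbered on each chromosome, which is a loose bound in so short a list. With the most that the numbers allow on every autosome, the ratios were 1.23 for numbered peaks and 1.83 for the share kept, so the split between these factors is not fixed in the pulldown. In the even and odd lists the same change moved them little, to 1.20 and 1.24 (even) and to 1.19 and 1.11 (odd). The share of kept pulldown peaks that entered the consensus was 1.20 times that of the other autosomes.

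**Figure D4:**
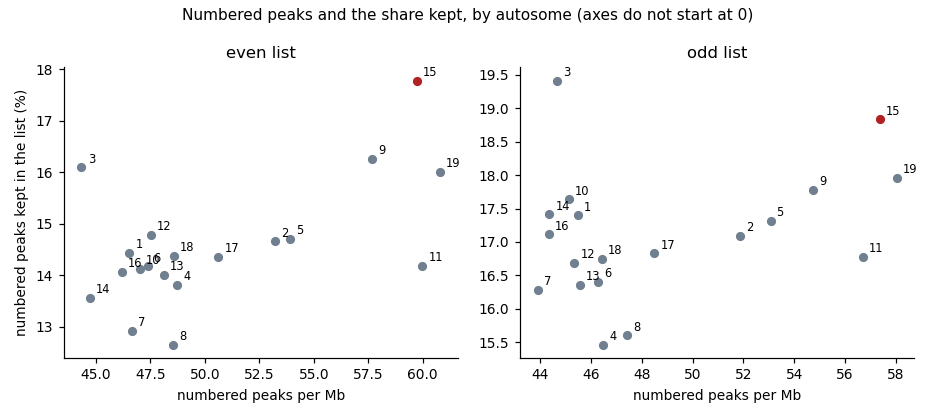
Numbered peaks per Mb (horizontal) and the percent of them kept in the deposited list (vertical) for each autosome, in the even and odd lists; neither axis starts at 0. Chromosome 15 (red) lies to the upper right in both panels, at 59.7 per Mb and 17.8% in the even list and at 57.4 per Mb and 18.8% in the odd list.

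Kept peaks largely followed numbered peaks along the chromosome, while the share kept varied between bins. Over the full bins, kept and numbered counts had a Pearson's r of 0.851 (even) and 0.797 (odd). Numbered even peaks rose from between 155 and 370 per bin in the bins before 55 Mb to 444 in the bin from 75 to 80 Mb and 402 in the next. The share kept was 23.3% in the bin from 55 to 60 Mb and fell to 13.2% in the bin from 85 to 90 Mb and 10.8% in the bin from 90 to 95 Mb. The odd list had 21.2%, 13.1% and 13.8% in the same bins. Between 95 and 100 Mb the share kept was again 21.0% (even) and 19.4% (odd), with 439 and 392 numbered peaks. This was the densest full bin of the chromosome. Over the 19 bins, 17 kept a larger share of even peaks and 15 a larger share of odd peaks than the median bin of the other autosomes. The bins named here were picked with their values in view.

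Even peaks of chromosome 15 met the odd pool about as often as elsewhere, and odd peaks met the even pool more often than on the other autosomes. A single common base (1 bp) was enough for peaks to count as shared. Of the even peaks, 176 (16.5%, 14.4% to 18.9%) met an odd peak, against 15.3% on the other autosomes and 15.4% over all chromosomes (rank 5 of the 19 autosomes). Of the odd peaks, 176 (16.3%, 14.1% to 18.6%) met an even peak, against 13.4% on the other autosomes and 13.5% over all chromosomes, the highest share of any autosome, with the others between 11.6% and 15.6%. Shared even and odd peaks were equal in number, 176 here and 2520 elsewhere, so the even and odd shares differ only through the list sizes. Denser lists also overlap more by position alone, and how much of the difference that gives was not tested. The unshared peaks were denser too: with shared peaks left out, the density ratios of chromosome 15 were 1.46 (even) and 1.28 (odd). Shared peaks occurred in each of the 21 bins, with between 4 and 14 in every full bin.

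Sharing followed the score on chromosome 15 as it did elsewhere. Of the 119 even peaks in the top 10% of their list, 97 (81.5%, 73.4% to 88.0%) met an odd peak, near the 83% over all chromosomes. Of the 106 odd peaks in the top 10% of their list, 9 (8.49%, 3.96% to 15.5%) met an even peak, where the share was 4.19% over all chromosomes. That share was the highest of the autosomes, whose others lay between 1.12% and 5.88%, but it rests on 9 peaks. On chromosome 15 the median even score was 2517.5 with an odd partner and 954.5 without, whereas the median odd score was 1027.5 with an even partner and 1145 without. Scores of the 176 pairs had a Spearman's rho of 0.445 and a Pearson's r of 0.279, against 0.492 and 0.405 over 2521 pairs of the other autosomes, as a description across pairs within the same 2 libraries.

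Most pulldown peaks of chromosome 15 met both pools. Of the 44 pulldown peaks, 27 (61.4%, 45.5% to 75.6%) met both pools, against 51.6% over all chromosomes, 15 (34.1%, 20.5% to 49.9%) met an odd peak alone, against 39.5%, and 2 (4.55%) met an even peak alone, against 8.51%. Of the 44, 0 met neither pool (0% to 8.04%), against 0.387% over all chromosomes. Seen from the pools, 29 even peaks (2.73%, 1.83% to 3.89%) and 42 odd peaks (3.88%, 2.81% to 5.21%) met a pulldown peak, against 1.72% and 2.29% over all chromosomes. Of the 176 shared even peaks, 27 (15.3%, 10.4% to 21.5%) met a pulldown peak, the highest share of the autosomes, against 9.61% over all chromosomes. The next was chromosome 19 with 14.9%. The consensus is made from these overlaps, so none of these shares is separate from the count that led to the choice of the chromosome.

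Scores did not set chromosome 15 apart in the pools. The median even score was 1047.5 (quartiles 768 and 1651) against 1077 on the other autosomes, and the median odd score was 1120 (quartiles 787 and 1698) against 1145. Chromosome 15 ranked 17th of 19 by median score in both lists. In the top 10% of each list were 11.2% (9.35% to 13.2%) of its even peaks and 9.79% (8.08% to 11.7%) of its odd peaks, where 10.1% were in each list as a whole. Among the 100 highest scores of a list, chromosome 15 had 8 even peaks (0.752% of its peaks, against 0.574% overall) and 4 odd peaks (0.369%, against 0.486%). In the pulldown, its median score was 846.5 against 824.5 (rank 6 of 19), and 7 of its 44 peaks (15.9%, 6.64% to 30.1%) were in the top 10%, where 9.86% of the list were. Its peaks were thus more numerous at a usual range of scores.

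The highest even peak of the chromosome, at chr15:22966289-22966942, had a score of 4322 and ranked 5th of 18114. It met an odd peak with a score of 705 (rank 18620 of 20596) and a pulldown peak with a score of 923, and so entered the consensus. The highest odd peak, at chr15:67408142-67408808, had a score of 4786 and ranked 6th. It met a pulldown peak with a score of 1048 and no even peak. Neither of these regions was high in both pools.

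The 27 consensus intervals were each the exact intersection of 1 pulldown, 1 even and 1 odd peak. They were 343 to 604 bp wide with a median of 479 bp, equal to the median elsewhere, and covered 13.1 kb. Pulldown scores ran from 654 to 1427 with a median of 854, against 823.5 for the 232 intervals of the other autosomes. Their even peaks had a median score of 3330 and a median percentile of 98.5 within the even list, and 26 of the 27 were in its top 10%. Their odd peaks had a median score of 1556 and a median percentile of 68.1, 6 were in the top 10% of the odd list and 9 lay below its median. Elsewhere the median percentiles were 97.9 (even) and 65.5 (odd), so this difference between the pools was as large on other autosomes. The interval at chr15:9083132-9083499, also named after its values were known, was the only one of the 27 whose odd peak stood higher (score 3673, rank 336) than its even peak (score 664, rank 16546).

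**Figure D5:**
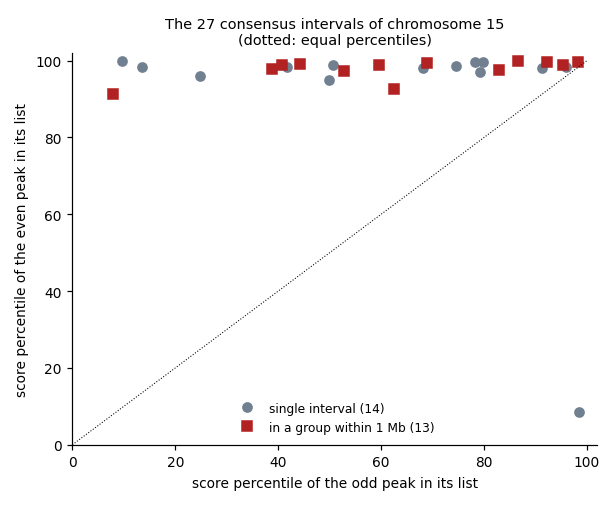
Score percentile of the odd peak (horizontal) and of the even peak (vertical) behind each of the 27 consensus intervals of chromosome 15, for the 13 intervals in groups within 1 Mb (red squares) and the 14 single ones (grey circles). Even percentiles lie above 90 for 26 intervals while odd percentiles run from 8.0 to 98.4.

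The interval with the highest pulldown score, 1427 (12th of 517), lay at chr15:80520714-80521249, with an even score of 3965 and an odd score of 2362. The second, at chr15:44323060-44323662, had a pulldown score of 1329, an even score of 3737 and an odd score of 2798. The next pair lay at the far end of the chromosome: chr15:100901888-100902321 had a pulldown score of 1200, an even score of 3482 and an odd score of 1009, and chr15:100212690-100213146 had 1170, 3705 and 1577. The interval with the 5th highest score, at chr15:98975160-98975662, had a pulldown score of 1133, an even score of 3936 and an odd score of 1905. These intervals had even peaks among the 190 highest of their list, whereas their odd peaks ranked between 1611 and 12105.

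The next 5 by pulldown score had scores between 923 and 1086. They lay at chr15:46931293-46931780 (1086), chr15:79852334-79852778 (1013), chr15:21627856-21628388 (982), chr15:52578249-52578697 (959) and chr15:22966447-22966842 (923). The last of these holds the highest even peak of the chromosome. The remaining 17 intervals had pulldown scores from 654 to 878.

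Nearly as many intervals lay in groups as alone. When intervals with a gap of at most 1 Mb were joined, 13 of the 27 (48.1%, 28.7% to 68.1%) fell into 5 groups and 14 stood alone. On the other autosomes 90 of 232 (38.8%, 32.5% to 45.4%) fell into 35 groups, and 39.8% of the intervals of all autosomes did so. Chromosome 15 had more groups than any other autosome, whose highest number was 4, and it also had more intervals to join. Chromosomes 5 and 9, with 24 intervals each, had 4 groups with 13 intervals each, and their largest group had 5 members, against 4 on chromosome 15. The groups were therefore no larger than elsewhere.

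The largest group had 4 intervals within 866 kb, from 79720763 to 80586708. Its members were chr15:79720763-79721267 (pulldown score 854), chr15:79852334-79852778 (1013), the highest interval of the chromosome at 80520714 (1427) and chr15:80586212-80586708 (782). The odd peaks of 3 of them, with scores of 3139, 2362 and 2123, were in the upper part of their list, and that of the second had 1341. Within the group's span lay 12 even and 16 odd peaks, 13.9 and 18.5 per Mb. Both are above the chromosome's own densities of 10.6 and 10.8, but each of the 4 intervals that set the span brings an even and an odd peak. These densities are therefore raised by construction.

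A group of 3 intervals lay within 410 kb, from 67193613 to 67603911. Its members were chr15:67193613-67194061 (pulldown score 702), chr15:67552144-67552733 (816) and chr15:67603361-67603911 (825), the last pair only 50.6 kb apart. The middle one had high scores in both pools, 3896 (rank 55) in the even and 3669 (rank 347) in the odd list. The highest odd peak of the chromosome, which has no even partner, lay inside the same group.

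The other 3 groups were pairs. The pair at chr15:44323060-44323662 and chr15:44525800-44526278 spanned 203 kb and had pulldown scores of 1329 and 862. The pair at chr15:52578249-52578697 and chr15:53128720-53129242 spanned 551 kb and had scores of 959 and 754. The pair at chr15:100212690-100213146 and chr15:100901888-100902321 spanned 690 kb and had scores of 1170 and 1200. Even density within the spans of the 5 groups ran from 13.9 to 26.8 peaks per Mb and odd density from 14.6 to 34.4, all above the chromosome's 10.6 and 10.8. Group spans begin and end on shared peaks, so they hold such peaks by construction and their densities are raised by it. Whether they exceed the chromosome's densities without these peaks was not tested.

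The pulldown also gathered where the consensus did not. The bin from 35 to 40 Mb held 8 pulldown peaks, the most of any bin of the chromosome, and 1 consensus interval. Of the 8, 6 met an odd peak alone, 1 met an even peak alone and 1 met both. The highest of them, at chr15:38435505-38436070, had a score of 1211 (25th of 517) and an odd partner with a score of 3465. A neighbour at chr15:38422109-38422695, the 4th highest outside the consensus and named after its value was known, had a score of 1051 and an odd partner with a score of 3987. The second highest of the 8, at chr15:35074953-35075570, had a score of 1068 and an odd partner with a score of 3979, which ranked 132nd. All 3 odd partners ranked within the top 10% of the odd list, and no even peak met the 3 pulldown peaks. Most of the 15 pulldown peaks of the chromosome that met an odd peak alone had an odd partner in that top 10%. Such partners were therefore not particular to this bin. This bin, too, was picked with its values in view. Over the chromosome the 17 pulldown peaks outside the consensus had scores from 643 to 1211 with a median of 838, close to the 854 of those inside. The 3 highest of the 17 were those at 38435505 (1211) and 35074953 (1068) and the peak at chr15:36335144-36335771 (1060, odd partner 2933), all in this bin.

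The longest stretch without a consensus interval was 18.4 Mb, from 80586709 to 98975159, against a median gap of 2.26 Mb between neighbours. It held 1 pulldown peak, 0.0544 per Mb against 0.526 on the rest of the chromosome. Much of this contrast is by construction: the 27 pulldown peaks in the consensus could not lie there, and only the 17 outside it could. On average the pools did not thin out there: the stretch had 10.8 even and 10.2 odd peaks per Mb, against 10.6 and 10.9 on the rest. Within it they were uneven. The bin from 90 to 95 Mb had 27 even and 37 odd peaks, below the median bins of 33 and 39 on the other autosomes. The bin from 85 to 90 Mb had 47 and 44. It held 26 pairs of shared peaks, which were 13.1% (8.72% to 18.6%) of its even and 13.8% (9.24% to 19.6%) of its odd peaks, against 17.3% and 16.8% on the rest. No pair could meet a pulldown peak with both of its members there, since that would have formed a consensus interval. The pool peaks were thus spread along the chromosome, whereas the consensus intervals left out this stretch, which was chosen after the values were seen.

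The control lists had too few peaks on chromosome 15 to set beside the densities of the pools. The no-probe control had 8 peaks, a density ratio of 1.70 (0.717 to 3.48), the RNase control 5, a ratio of 0.991 (0.316 to 2.38), and the input 6, a ratio of 0.999 (0.360 to 2.23). The intervals of all 3 include both 1 and the ratios of the even and odd lists. The consensus ratio of 2.67 (1.73 to 3.99) lies above the RNase and input intervals, and the pulldown ratio of 2.25 (1.61 to 3.07) just above the input interval. The intervals themselves overlap. Of the 6 input peaks, 5 lay within 1499 bp, from 74915976 to 74917474, with scores from 343 to 756, so they are not separate positions along the chromosome. The other was at chr15:79804372-79804414 (score 184), inside the span of the group of 4 and 47.9 kb from its nearest interval, the smallest distance between any control peak and any of the 27. The no-probe peaks started at 9377446, 15429490, 18505344, 62432326, 68757921, 93130476, 96256121 and 101882821, with scores from 25 to 63. The RNase peaks started at 25027212, 30953372, 32814955, 72560100 and 78746863, with scores from 35 to 64. None of these 19 control peaks met a pulldown, even, odd or consensus entry.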

How the data were processed

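ChIRP-seq was measured in 6 libraries of MEL cells, 1 per condition. Per the submitters' processing notes, Bowtie2 and bedtools were used with build mm9; no source used here gives versions, the peak caller or the rule by which peaks were selected. The deposited files are peak lists whose only measurement is the authors' score per peak. Positions are given from 1. Densities are peaks per Mb of called span, and bins hold peaks by their midpoint. Numbered peaks per bin were read from the peak names by linear interpolation between listed peaks. The computing used SciPy 1.17.1 for exact intervals, with pandas 2.3.3 and numpy 2.4.6 under Python 3.11.15; figures were drawn in matplotlib 3.10.9. The overlap, grouping and density code was tested on simulated lists. The chromosome and the measures were chosen with earlier results of these data known, and no test was made. Regions are named by a rule: intervals in groups, the 10 highest consensus intervals, the 3 highest pulldown peaks outside the consensus, the highest peak of each pool, the 3 densest and 3 sparsest full bins, and all control peaks. The few others named are marked as picked with their values known. No mm9 sequence or gene annotation was used here, so genes at these regions are not named.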

Additional observations from a re-analysis of the deposited data

How the results depend on the processing

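Of 51 alternative values for 14 results, 37 stayed within the counting interval of the value reported (for counts, within 1.5 times), 14 moved beyond it and 0 reversed. Density ratios kept their direction under every alternative run. Without the 3 bins that had most even and odd peaks together, they were 1.36 (even) and 1.23 (odd), outside the counting intervals of the values reported. These ratios are per Mb of called span with the incomplete end bins kept, unlike the ratios of mean full bins given above. With all numbered peaks in place of those listed, an alternative added after the data were seen, they were 1.45 (pulldown), 1.20 (even) and 1.20 (odd), and 1.23, 1.20 and 1.19 with the largest numbers possible, also added then. With 10 Mb bins, 100% of the even bins of chromosome 15 exceeded the median bin elsewhere. Among the top 50% of each list by score, 13.2% of even peaks met an odd peak, 12.8% of odd peaks met an even peak and 37.5% of pulldown peaks met both; fewer peaks of the partner list remain there. Pulldown peaks in place of consensus intervals gave 11 groups with 29 peaks, from a list of 44. No paired analysis was possible because each condition has 1 library. Depth is unknown, and with 27 consensus intervals and 19 control peaks only large differences between chromosomes could be seen.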
